A study of Mus musculus with 22 samples.

Results

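The nuclear genes of the mitochondrial respiratory chain were followed in mouse back skin at 3 postnatal ages in 2 genotypes. The members were all probe sets that the platform annotation pairs with exactly 1 gene whose symbol starts with Ndufa, Ndufb, Ndufc, Ndufs, Ndufv, Sdh, Uqcr, Cox4, Cox5, Cox6, Cox7, Cox8 or Atp5. Cox6a2, Cox7a1 and Cox8b, isoforms typical of muscle and brown fat, were left out by that rule. It gave 96 probe sets for 70 genes among the 12422 probe sets that were not array controls, which cover 8251 genes. Of these genes, 29 belong to complex I, 4 to complex II, 7 to complex III, 12 to complex IV, 14 to complex V and 4 are assembly factors.

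Complexes I to IV carry electrons from NADH and succinate to oxygen and pump protons out of the mitochondrial matrix, except complex II, which feeds electrons in without pumping. Complex V, the ATP synthase, lets the protons back and makes ATP. All members are encoded in the nucleus and imported into mitochondria, where complexes I, III, IV and V are completed with subunits that the mitochondrial genome encodes. Some subunits of complex IV exist as a general isoform and as one typical of muscle. Whole back skin holds epidermis, hair follicles, dermis, fat and a thin muscle layer, cell types that differ in how many mitochondria they carry.

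All animals were of the CB6F1 strain. Transgenic mice carried K14-DN-Clim, in which the keratin 14 promoter, active in basal keratinocytes, drives a dominant-negative CLIM; CLIM (Ldb) proteins are cofactors of LIM domain factors. The controls were wild-type (WT) littermates. The ages were postnatal day 6 (P6) and P14, while the first hair follicles are made, and P23, the first resting phase (telogen). Each genotype, WT and transgenic (DN-CLIM), had 5 arrays for P6, 3 for P14 and 3 for P23. The skin was taken whole, so fewer cells of a type and less RNA per cell cannot be told apart, and no label says whether an array holds 1 mouse or a pool, so p-values measure the spread between arrays, which may be technical.

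Levels are log2 of the deposited signal, n is the number of arrays, and every SE and adjusted p comes from limma with Benjamini-Hochberg adjustment. A probe set was tested where its mean over all arrays reached a log2 signal of 7.67, the median of all such means, and "called" means an adjusted p under 0.05 in limma over the 6211 probe sets tested. Some genes were named because their arrays did not overlap between ages, so a lack of overlap describes them and is not separate support. Its share over all probe sets was not counted. Array medians lay between 7.56 and 7.80. Of the members, 67 probe sets for 61 genes passed this filter, and 53 of them (79.1%) had a mean above the 75th percentile of all probe sets. As a check of the tissue, 13 of 15 listed epidermal differentiation genes and 14 of 18 listed hair matrix and shaft genes were on the array. All of those on the array were bright enough to be tested. One array stood apart: DN-CLIM P6 replicate 5 correlated with its group at 0.923, against 0.954 to 0.982 for the other arrays. The mean over all tested member genes was 10.99 on that array and 10.74 to 10.80 on the other DN-CLIM P6 arrays. Member counts and changes that use the DN-CLIM P6 group are therefore given with and without it. All groups share 1 estimate of the spread, so leaving it out also moved counts of comparisons that do not use that group, and those are given too.

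From P14 to P23 the respiratory chain genes changed in both directions, and the direction differed from complex to complex. In WT skin 32 of 67 member probe sets were called, 21 higher and 11 lower at P23, which is 47.8% against 54.2% of all probe sets tested (27% higher and 27.1% lower). In DN-CLIM skin 34 were called, 21 higher and 13 lower, 50.7% against 54.3% (27.1% higher and 27.2% lower). The share of members called was thus below that of all probe sets in both genotypes. Most calls in complex I and all in complex II were higher at P23, most in complex V were lower, and complexes III and IV held both. In WT skin complex I had 12 higher and 2 lower of 27, complex II 3 and 0 of 4, complex III 2 and 2 of 7, complex IV 3 and 3 of 11, and complex V 0 and 3 of 15. In DN-CLIM skin the counts were 12 and 3, 2 and 0, 3 and 2, 3 and 3, and 1 and 5. The median log2 change in WT and in DN-CLIM was 0.20 and 0.25 for complex I, 0.43 and 0.42 for complex II, -0.05 and 0.03 for complex III, -0.13 and -0.14 for complex IV and -0.22 and -0.23 for complex V. Over all probe sets tested it was -0.00 in both. The split depends on the scaling of the arrays: with each array centred on its median, which moved the median of all probe sets to -0.13 in WT and -0.07 in DN-CLIM, the calls were 14 higher and 17 lower in WT and 15 and 16 in DN-CLIM. Quantile normalization gave 25 and 11 in WT and 27 and 13 in DN-CLIM. The shares of all probe sets called higher and lower under these scalings are not given here, so a shift of all probe sets may share in these splits. Without DN-CLIM P6 replicate 5, 37 members were called in WT (58.4% of all probe sets) and 39 in DN-CLIM (58.8%). The medians of complexes I and II stayed above 0 and those of complexes IV and V below 0 under both scalings, while that of complex III turned to 0.04 in WT with quantile normalization and to -0.04 in DN-CLIM with centring. With no filter on signal the complex I median was 0.11 in WT and 0.0016 in DN-CLIM, that of complex V -0.0022 in WT, and that of complex IV -0.25 and -0.51. With 1 array left out, the complex I median was 0.33 in WT without P14 replicate 2, the WT complex IV median -0.08 without P23 replicate 2, and the WT complex V median -0.14 without P23 replicate 3.

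**Figure D1:**
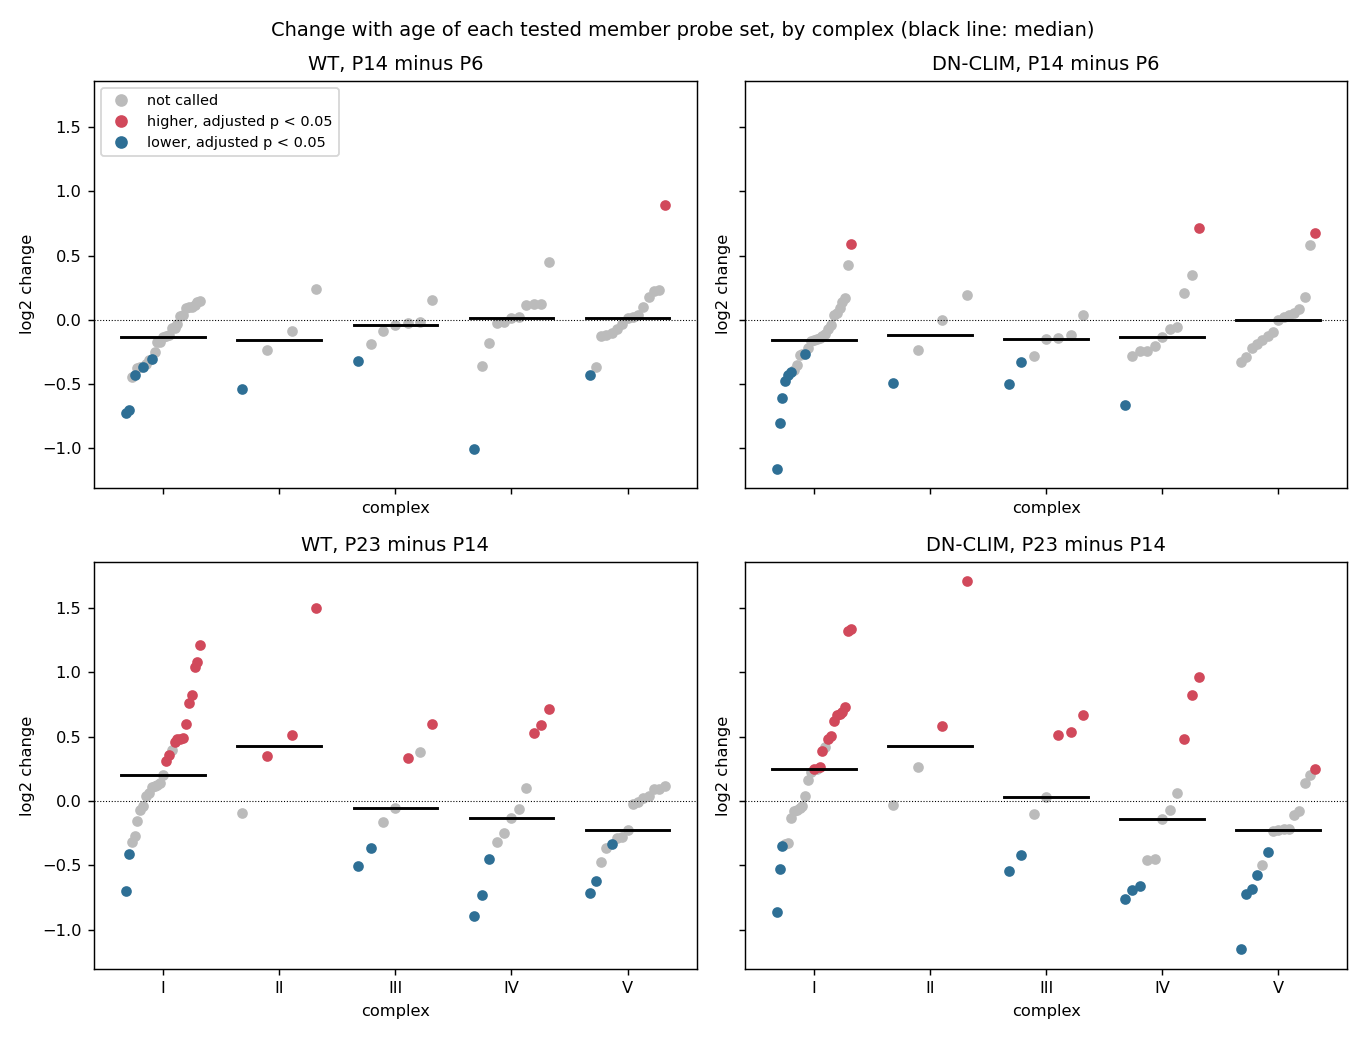
Each point is 1 tested member probe set, the y axis is its log2 change between 2 ages, the columns are complexes I to V, and the black lines are medians; red and blue points were called higher and lower in limma. From P14 to P23 the complex I and II medians lie above 0 (0.20 and 0.43 in WT) and the complex V median below it (-0.22 in WT), in both genotypes.

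The promoters of 4 members are shown as examples of windows that hold an NRF1 motif, for genes that rose from P14 to P23 (Sdha, Sdhd) and genes that fell (Cox6a1, Uqcrc1). They were chosen after their values were seen and do not stand for all members: the windows of Ndufv3, Ndufab1 and Cox7a2, which were called in both genotypes, hold none of the NRF1, ETS and YY1 motifs searched. Each line gives 250 bases before to 50 after the start of the gene, 5′ to 3′ on its own strand, from RefSeq on GRCm38.p6. Capitals mark matches on either strand to a motif of nuclear respiratory factor 1 (NRF1: GCGC, then any base, then TGCGC) or an ETS motif (CCGGAAG), and no match overlaps a match to the other motif. The windows lie at chr13:74350191-74350490 on the minus strand (Sdha), chr9:50603800-50604099 on the minus strand (Sdhd), chr5:115348909-115349208 on the minus strand (Cox6a1) and chr9:108936398-108936697 on the plus strand (Uqcrc1).
Sdha: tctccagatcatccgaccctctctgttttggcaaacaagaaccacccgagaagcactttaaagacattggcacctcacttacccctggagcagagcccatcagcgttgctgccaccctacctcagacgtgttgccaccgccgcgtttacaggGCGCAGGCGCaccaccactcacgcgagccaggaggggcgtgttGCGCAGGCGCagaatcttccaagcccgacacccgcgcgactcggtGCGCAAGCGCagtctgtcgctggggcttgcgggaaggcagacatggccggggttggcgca
Sdhd: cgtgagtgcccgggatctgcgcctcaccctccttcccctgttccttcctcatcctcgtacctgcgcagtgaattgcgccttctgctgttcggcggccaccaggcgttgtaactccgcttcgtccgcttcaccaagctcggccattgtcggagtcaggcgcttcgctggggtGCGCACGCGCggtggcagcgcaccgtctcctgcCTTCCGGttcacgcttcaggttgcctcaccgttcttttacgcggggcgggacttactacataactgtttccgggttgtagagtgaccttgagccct
Cox6a1: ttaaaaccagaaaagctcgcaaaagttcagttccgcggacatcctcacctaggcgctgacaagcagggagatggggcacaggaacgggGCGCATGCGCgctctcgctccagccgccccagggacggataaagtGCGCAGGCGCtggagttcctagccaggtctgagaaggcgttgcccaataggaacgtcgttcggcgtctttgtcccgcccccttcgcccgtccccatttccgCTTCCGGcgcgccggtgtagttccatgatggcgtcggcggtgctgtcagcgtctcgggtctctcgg
Uqcrc1: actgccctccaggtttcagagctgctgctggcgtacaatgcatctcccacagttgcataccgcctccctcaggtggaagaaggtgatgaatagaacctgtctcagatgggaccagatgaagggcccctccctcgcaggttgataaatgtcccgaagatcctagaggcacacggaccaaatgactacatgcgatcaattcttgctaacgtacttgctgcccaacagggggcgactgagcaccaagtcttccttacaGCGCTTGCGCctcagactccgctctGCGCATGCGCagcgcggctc

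Promoter windows were found for 58 of the 70 genes (63 windows of 300 bases). NRF1 matches stood in 20.6% of them and in 4.6% of all 32851 windows, and ETS matches in 28.6% and 8.86%. A YY1 motif (AAGATGGC) was in 12.7% and 2.75%, and the TATA box letters TATAAA in 9.52% and 13.6%. At least 1 of the NRF1, ETS and YY1 motifs was in 55.6% of the members' windows and in 14.7% of all. Members that rose and members that fell from P14 to P23 both held them: 66.7% of the 12 windows of genes called higher in both genotypes had 1 or more, and 75% of the 8 windows of genes called lower in both. These windows cover 11 of the 17 genes called higher in both and 8 of the 9 called lower, and the others had no window to search. A match describes these letters and is not a measured binding site.

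Complex I oxidizes NADH, and its core subunits bind the flavin and the iron-sulfur clusters. Of its 5 tested core probe sets, 2 were called higher at P23 in WT and 3 in DN-CLIM, and 0 were called lower. Ndufs1 (probe set 93572_at), an iron-sulfur core subunit of the arm that takes up NADH, read 10.16, 10.15 and 10.27 at P14 and 10.89, 10.76 and 10.73 at P23 in WT. In DN-CLIM it read 10.26, 9.93 and 9.97 at P14 and 10.84, 10.74 and 10.59 at P23. All P23 arrays lay above all P14 arrays, and the log2 change in limma was 0.60 ± 0.10 (SE, adjusted p = 2.29e-05) in WT and 0.67 ± 0.10 (SE, adjusted p = 5.23e-06) in DN-CLIM. Ndufs3, a core subunit of the module that reduces ubiquinone, rose by 0.48 in WT and by 0.39 in DN-CLIM (adjusted p = 0.00287 and 0.0122). Ndufv1, the flavin-binding core subunit, read from 12.22 to 12.71 on the P14 arrays of both genotypes and from 12.18 to 12.57 at P23. The ages overlapped, with a log2 change of -0.07 ± 0.15 (SE, adjusted p = 0.709) in WT and -0.08 ± 0.15 (SE, adjusted p = 0.676) in DN-CLIM.

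Among the accessory subunits of complex I, 10 of 22 tested probe sets were called higher and 2 lower in WT, and 9 and 3 in DN-CLIM. Ndufv3 (97874_at), an accessory subunit next to the NADH site, had the largest rise among the tested probe sets of complex I. It read 8.76, 8.63 and 8.34 at P14 and 9.76, 9.61 and 10.005 at P23 in WT, and 7.93, 8.83 and 8.69 and then 9.78, 9.94 and 9.73 in DN-CLIM. The P23 arrays lay above every P14 array, with a log2 change of 1.21 ± 0.22 (SE, adjusted p = 7.3e-05) in WT and 1.34 ± 0.22 (SE, adjusted p = 2.4e-05) in DN-CLIM. Ndufab1 (96909_at), the mitochondrial acyl carrier protein, read 9.66, 10.18 and 9.64 at P14 and 10.84, 11.05 and 10.83 at P23 in WT. In DN-CLIM it read 9.59, 9.33 and 9.86 and then 10.92, 11.02 and 10.81. The ages did not overlap in either genotype, and the change was 1.08 ± 0.24 (SE, adjusted p = 0.000574) and 1.32 ± 0.24 (SE, adjusted p = 6.98e-05).

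Other accessory subunits of complex I rose by less. Ndufa5, of the arm that reduces ubiquinone, rose by 0.82 in WT and 0.67 in DN-CLIM, and Ndufb11, of the membrane arm, by 0.76 and 0.73 (adjusted p = 2.21e-06 and 3.85e-06). Ndufa2, Ndufa6 and Ndufa13 rose in WT by 0.49, 0.46 and 0.48, and in DN-CLIM the values were 0.50, 0.69 and 0.25, the last with adjusted p = 0.067. The WT call of Ndufa6 was lost without WT P14 replicate 1 (0.42, adjusted p = 0.0569) or WT P23 replicate 3 (0.40, adjusted p = 0.0693). Ndufc1, a small subunit of the membrane arm, rose by 1.04 in WT and by 0.62 in DN-CLIM. The DN-CLIM call of Ndufc1 was lost without replicate 1 or 3 at P14 or any of the 3 DN-CLIM P23 arrays, with 0.50 to 0.64 and adjusted p from 0.0814 to 0.158.

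Ndufa9 (96321_at), an accessory subunit beside the ubiquinone site, went the other way. It read 11.79, 11.85 and 11.83 at P14 and 10.94, 11.48 and 10.95 at P23 in WT, and 11.60, 11.99 and 11.78 and then 10.88, 11.02 and 10.86 in DN-CLIM. Its change was -0.70 ± 0.24 (SE, adjusted p = 0.0187) in WT and -0.87 ± 0.24 (SE, adjusted p = 0.00462) in DN-CLIM, with every P23 array below every P14 array. In WT 1 array, P23 replicate 2, lay nearer to the P14 level, and the call was lost without replicate 1 or 3 of that group (-0.61, adjusted p = 0.0723 and 0.0713).

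Complex II oxidizes succinate and joins the tricarboxylic acid (TCA) cycle to the chain. Sdha (94080_at), the flavoprotein that binds succinate, had the largest rise of the tested members. It read 7.96, 7.73 and 7.87 at P14 and 9.45, 9.20 and 9.40 at P23 in WT. In DN-CLIM it went from 7.55, 7.34 and 8.09 to 9.38, 9.43 and 9.32. The 2 ages were far apart in both genotypes, with a log2 change of 1.5 ± 0.21 (SE, adjusted p = 4.35e-06) in WT and 1.71 ± 0.21 (SE, adjusted p = 7.25e-07) in DN-CLIM, or 2.82-fold and 3.28-fold. Sdha passed the filter on signal through its P23 arrays, the group in which it was high. With no filter it was still called in limma (adjusted p = 9.64e-06 in WT and 1.66e-06 in DN-CLIM). Sdhb, the iron-sulfur subunit that passes the electrons on, read from 11.20 to 11.32 at P14 and from 11.05 to 11.33 at P23 over both genotypes; the WT arrays at P23 lay just below those at P14. Its change was -0.09 ± 0.11 (SE, adjusted p = 0.502) in WT and -0.03 ± 0.11 (SE, adjusted p = 0.816) in DN-CLIM, so the 2 catalytic subunits of the complex differed in that Sdha was called and Sdhb was not; the difference between them was not tested.

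The membrane anchors of complex II showed smaller values. Sdhd (92574_at) read 10.60, 10.59 and 10.57 at P14 and 11.22, 11.11 and 10.96 at P23 in WT, and 10.60, 10.49 and 10.55 and then 11.13, 11.23 and 11.03 in DN-CLIM. The ages did not overlap, and the change was 0.51 ± 0.20 (SE, adjusted p = 0.0347) in WT and 0.58 ± 0.20 (SE, adjusted p = 0.0168) in DN-CLIM. The WT call was lost without any 1 of the 3 WT P14 arrays or without WT P23 replicate 1 or 2, at 0.45 to 0.52 and adjusted p from 0.0664 to 0.107. The DN-CLIM call was lost without DN-CLIM P23 replicate 2 (0.54, adjusted p = 0.0564). Centring the arrays also ended the WT call (0.38, adjusted p = 0.113). Sdhc rose by 0.35 in WT (adjusted p = 0.0223; lost without WT P14 replicate 3 or WT P23 replicate 1, 0.28 and 0.29, adjusted p = 0.106 and 0.0971) and was not called in DN-CLIM (0.26, adjusted p = 0.0809).

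Complex III passes electrons from ubiquinol to cytochrome c. Uqcrb (95472_f_at), a subunit at the ubiquinone-binding region, read 10.82, 10.96 and 11.01 at P14 and 11.71, 11.40 and 11.46 at P23 in WT, and 10.93, 10.84 and 10.86 and then 11.67, 11.45 and 11.54 in DN-CLIM. Uqcrc1 (101989_at), a large core protein on the matrix side, read 12.22, 12.35 and 12.32 and then 11.80, 11.77 and 11.81 in WT, and 11.98, 12.38 and 12.21 and then 11.62, 11.74 and 11.58 in DN-CLIM. Both separated the ages without overlap, in opposite directions. The change of Uqcrb was 0.60 ± 0.13 (SE, adjusted p = 0.000731) in WT and 0.67 ± 0.13 (SE, adjusted p = 0.000233) in DN-CLIM. That of Uqcrc1 was -0.51 ± 0.11 (SE, adjusted p = 0.000482) and -0.55 ± 0.11 (SE, adjusted p = 0.000228). Uqcr11, a small subunit, rose by 0.33 and 0.52; its WT call was lost without WT P14 replicate 1 (0.26, adjusted p = 0.102) or replicate 3 (0.31, adjusted p = 0.0616). Uqcrc2, the other core protein, was called higher in DN-CLIM (0.53, adjusted p = 0.0367; lost without P14 replicate 1 or 3 or P23 replicate 1 or 2, 0.0961 to 0.148) and gave 0.38 in WT (adjusted p = 0.13). Uqcrq, which sits beside cytochrome b, fell by 0.37 in WT and 0.42 in DN-CLIM (adjusted p = 0.0472 and 0.0244). The Uqcrq calls rested on single arrays: the WT call was lost without any of 5 arrays (the 3 at P14 and P23 replicates 2 and 3, adjusted p from 0.0586 to 0.176) and the DN-CLIM call without P14 replicate 2 or 3 or P23 replicate 1 or 3 (0.0518 to 0.0725). Quantile normalization ended both (-0.10 and -0.20, adjusted p = 0.555 and 0.194).

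Complex IV, cytochrome c oxidase, reduces oxygen. Cox7a2 (93820_at), the form of subunit VIIa found in most tissues other than muscle, had the smallest p of any tested member in WT. It read 12.66, 12.68 and 12.59 at P14 and 11.84, 11.71 and 11.71 at P23 in WT, and 12.63, 12.49 and 12.49 and then 11.79, 11.80 and 11.74 in DN-CLIM. The change was -0.89 ± 0.09 (SE, adjusted p = 1.3e-08) in WT and -0.76 ± 0.09 (SE, adjusted p = 1.49e-07) in DN-CLIM, with all P23 arrays below all P14 arrays. Cox6a1 (99631_f_at), the corresponding form of subunit VIa, read 13.12, 13.19 and 13.18 and then 12.49, 12.50 and 12.31 in WT. In DN-CLIM it read 13.21, 12.94 and 13.04 and then 12.32, 12.34 and 12.44. It fell without overlap in both genotypes, with -0.73 ± 0.14 (SE, adjusted p = 0.000136) and -0.69 ± 0.14 (SE, adjusted p = 0.000252). Cox7a2l, a relative of Cox7a2 that links complexes III and IV, was not called (-0.13 and -0.07).

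The 3 isoforms that the rule left out moved up over the same interval. Cox6a2, the muscle form of subunit VIa, averaged 10.495 ± 0.49 (SD, n = 3) at P14 and 12.25 ± 0.33 at P23 in WT, and 10.23 ± 0.23 and 12.41 ± 0.14 in DN-CLIM. The brighter probe set of Cox8b averaged 9.90 ± 0.16 and 10.74 ± 0.15 in WT, and 10.06 ± 0.20 and 10.86 ± 0.21 in DN-CLIM. Cox7a1, the muscle form of subunit VIIa, was too dim to be tested and averaged 6.00 ± 0.27 at P14 and 8.86 ± 0.41 at P23 in WT, and 4.49 ± 0.98 and 8.64 ± 0.10 in DN-CLIM. Within complex IV the general isoforms Cox6a1 and Cox7a2 were thus lower at P23 and the muscle isoforms Cox6a2 and Cox7a1 were higher, with no overlap between P14 and P23 arrays for any of these 4 genes in either genotype.

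Cox7b (101580_at), a small subunit with no tissue isoform among the members, rose. It read 10.15, 9.88 and 10.18 at P14 and 10.71, 10.87 and 10.78 at P23 in WT, and 10.01, 10.11 and 10.16 and then 10.97, 10.92 and 10.86 in DN-CLIM. The P23 arrays were all higher, with 0.71 ± 0.16 (SE, adjusted p = 0.000894) and 0.82 ± 0.16 (SE, adjusted p = 0.000234). Cox4i1, a regulatory subunit needed to assemble the enzyme, gave no single answer. Its probe set 102124_f_at rose by 0.59 in WT and 0.96 in DN-CLIM, and the other (93788_at) gave -0.06 and -0.46 and was not called. Their means over all arrays, 7.86 and 7.75, both lay just above the limit for testing, and 102124_f_at passed it through its P23 arrays. With no filter on signal 102124_f_at was still called in limma (adjusted p = 0.0327 in WT and 0.000969 in DN-CLIM). Its WT call was lost without WT P14 replicate 1 or 2 or WT P23 replicate 2 (adjusted p from 0.0656 to 0.0871). Cox5b, a subunit on the matrix side, was not called, at -0.25 and -0.14. Cox8c and Cox6b2 are forms of complex IV subunits known from testis. Cox8c rose by 0.53 and 0.48 and Cox6b2 fell by 0.45 and 0.66. A dim probe set of Cox8c (161475_f_at, mean 3.28) went the other way with no filter, by -1.12 in WT and -1.37 in DN-CLIM. It was not called there (adjusted p = 0.165 and 0.0829 in limma). Single arrays ended the call of Cox8c in WT (P14 replicate 2, adjusted p = 0.0783) and in DN-CLIM (P14 replicate 1 or P23 replicate 1 or 2, 0.0596 to 0.116), and that of Cox6b2 in WT (P14 replicate 1 or 3 or P23 replicate 2 or 3, 0.0714 to 0.219).

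In complex V, where the flow of protons is turned into ATP, 0 of 15 tested probe sets were called higher at P23 in WT and 1 in DN-CLIM. Atp5e (93596_i_at), the epsilon subunit of the rotating central stalk, read 11.30, 11.27 and 11.39 at P14 and 10.75, 10.56 and 10.51 at P23 in WT. In DN-CLIM it went from 11.43, 11.71 and 11.34 to 10.36, 10.39 and 10.28. All P23 arrays lay below all P14 arrays, and the change was -0.71 ± 0.12 (SE, adjusted p = 4.86e-05) in WT and -1.15 ± 0.12 (SE, adjusted p = 8.97e-08) in DN-CLIM. Atp5pb (96898_at), subunit b of the stationary stalk, read 8.80, 8.85 and 8.92 and then 8.21, 8.44 and 8.06 in WT, and 9.01, 8.90 and 8.72 and then 8.20, 8.10 and 8.16 in DN-CLIM. It fell without overlap, with -0.62 ± 0.18 (SE, adjusted p = 0.0065) and -0.73 ± 0.18 (SE, adjusted p = 0.002). Atp5l, a membrane subunit, fell by 0.33 in WT and 0.40 in DN-CLIM (adjusted p = 0.00222 and 0.000452); quantile normalization ended both calls (-0.05 and -0.13, adjusted p = 0.608 and 0.165).

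No other probe set of complex V was called in WT, and 3 more were called in DN-CLIM. Atp5a1, the alpha subunit of the catalytic head, was not called (0.04 in WT and 0.20 in DN-CLIM). Atp5g1 and Atp5g2 encode the same protein of the proton-carrying ring. Atp5g1 was called lower in DN-CLIM (-0.68, adjusted p = 0.023) and not in WT (-0.48, adjusted p = 0.107), and that call was lost without DN-CLIM P14 replicate 2 or 3 or P23 replicate 2 or 3 (adjusted p from 0.0573 to 0.113). Atp5mpl, a small membrane subunit, was called lower in DN-CLIM (-0.58, adjusted p = 0.00525) and gave -0.29 in WT (adjusted p = 0.148). The call higher in DN-CLIM was 1 of the 2 probe sets of Atp5c1, the gamma subunit of the central stalk (92798_at, 0.25, adjusted p = 0.0393, and 0.02 in WT), named after its values were seen; its brighter probe set was not called (0.14). Atp5g2 was not called in either genotype (-0.28 and -0.23). The differences between genotypes in these changes were tested and none was called, as given with the genotype comparisons.

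**Figure D2:**
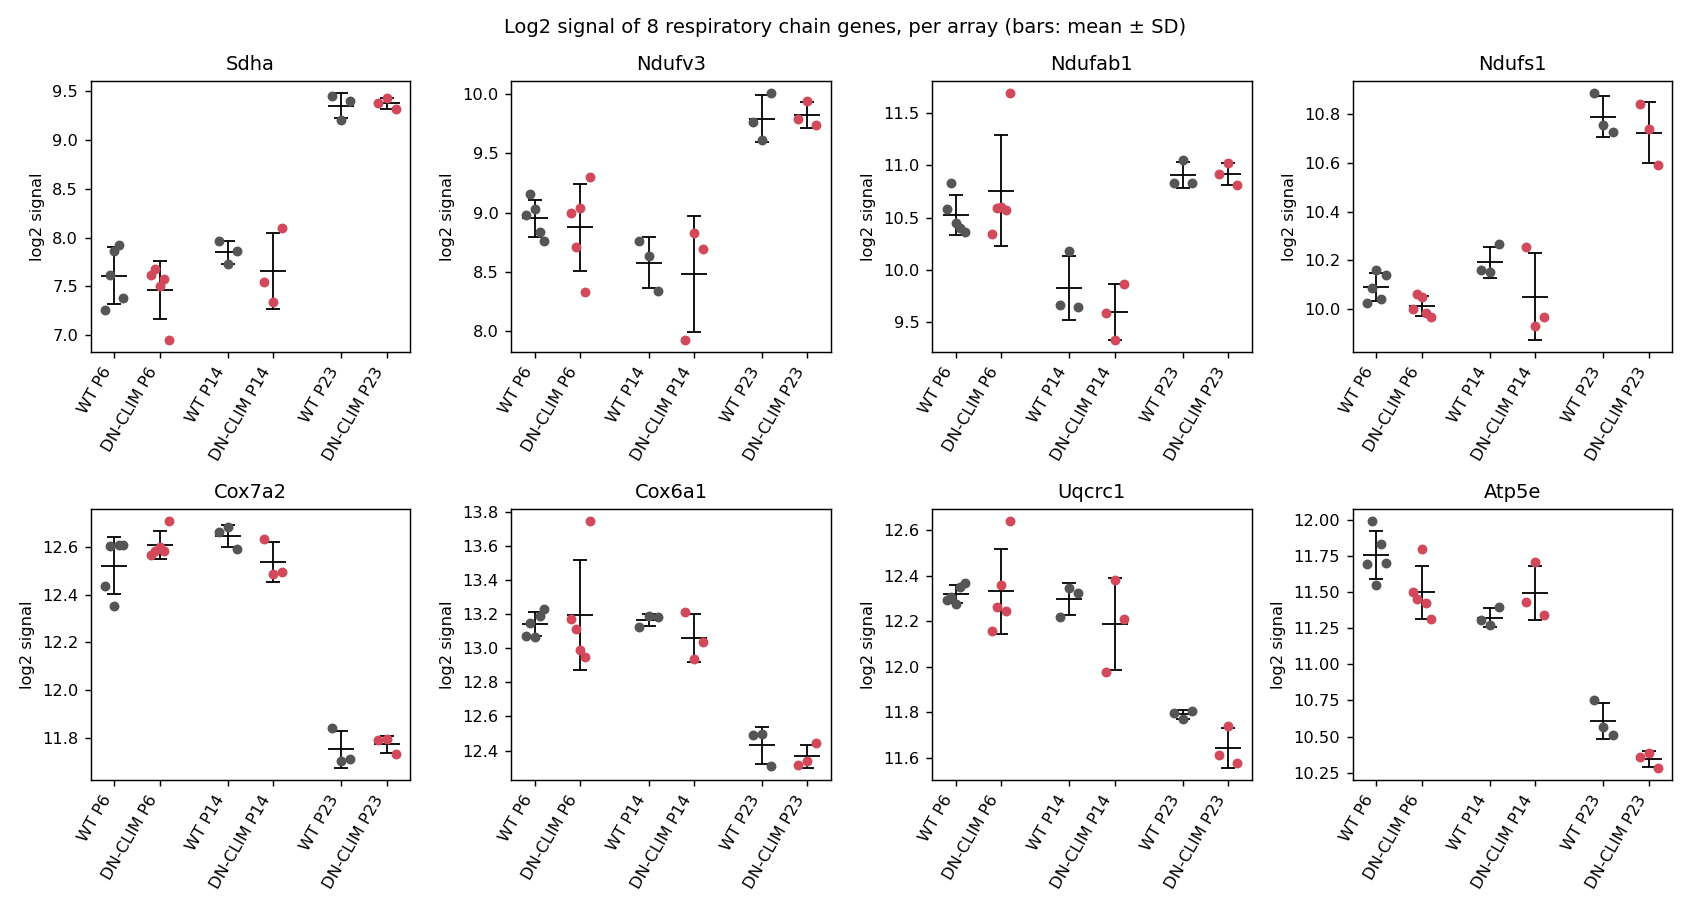
Each point is 1 array, the y axis is the log2 signal of the gene's brightest probe set on a scale of its own, and bars are the mean ± SD of the group (n = 5 at P6, 3 at P14 and P23; grey WT, red DN-CLIM). Sdha, Ndufv3, Ndufab1 and Ndufs1 lie higher at P23 than at P14, and Cox7a2, Cox6a1, Uqcrc1 and Atp5e lie lower, with no overlap in either genotype. Genes were named partly for a lack of overlap, so it is not separate support.

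The mean log2 signal over the 25 tested genes of complex I and the 12 of complex V moved in opposite directions from P14 to P23. The WT complex I mean was 10.70 ± 0.06 (SD, n = 3) at P14 and 10.98 ± 0.04 at P23, and the complex V mean 11.08 ± 0.03 and 10.85 ± 0.07. In DN-CLIM complex I went from 10.72 ± 0.04 to 10.96 ± 0.05 and complex V from 11.06 ± 0.02 to 10.72 ± 0.01. Taken within each array, where the scaling cancels, the complex I mean minus the complex V mean was -0.44 to -0.32 on the WT P14 arrays and 0.11 to 0.17 on the WT P23 arrays. In DN-CLIM it was -0.38 to -0.31 at P14 and 0.21 to 0.28 at P23. At P6 it lay between -0.35 and 0.01 in WT and between -0.27 and -0.07 in DN-CLIM, where replicate 5 had the highest value and the others reached -0.08. Its value at P23 was above that of every P6 and P14 array in both genotypes. The value itself depends on the probes, since signals of different probe sets are not on a common scale, and only its change between ages describes the samples.

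**Figure D3:**
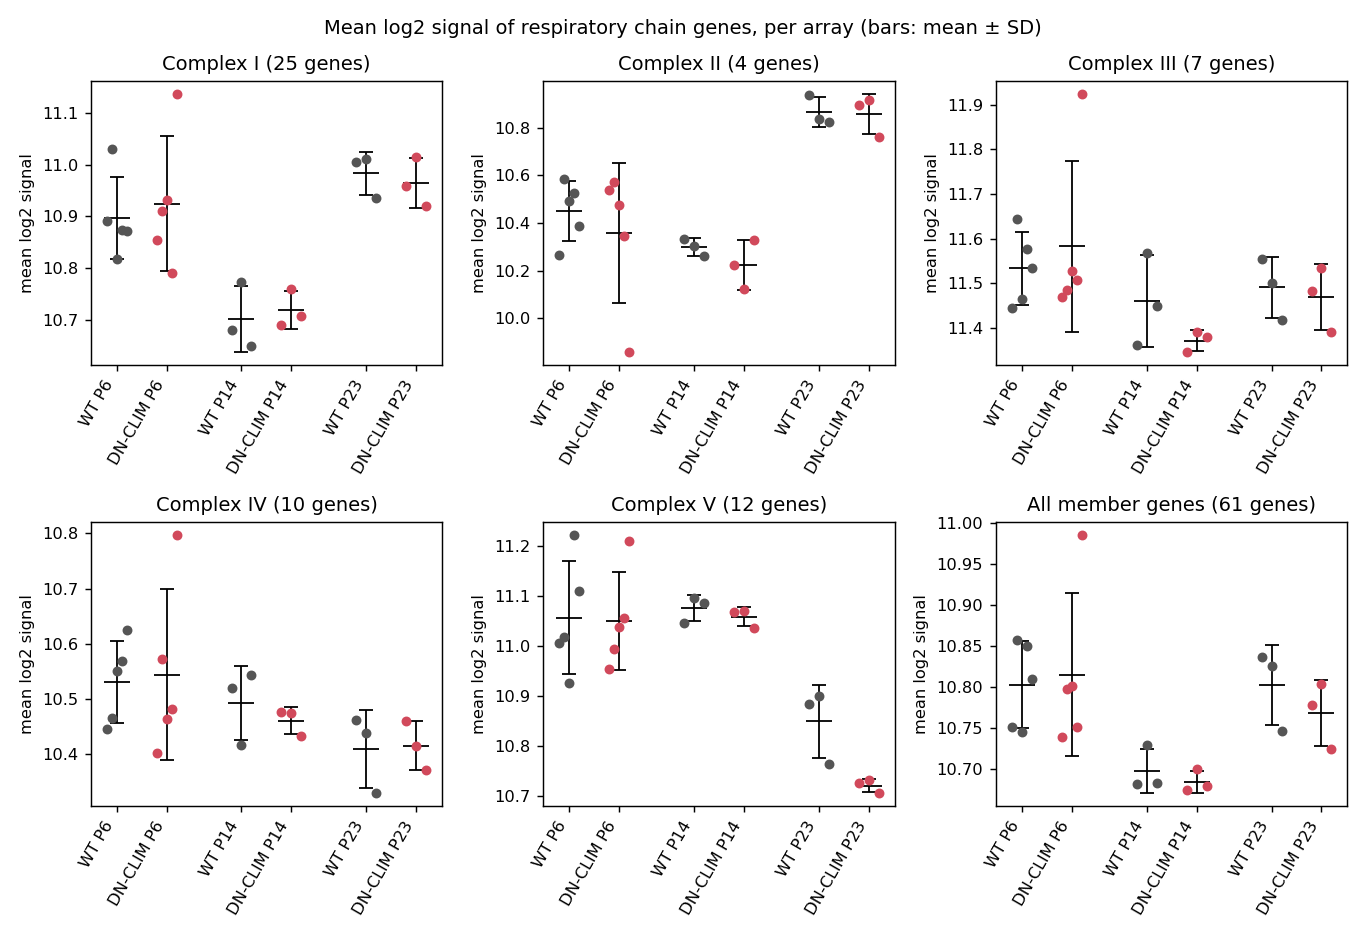
Each point is the mean log2 signal of 1 array over the tested genes of a complex (brightest probe set per gene), the groups are on the x axis, and bars are the mean ± SD (n = 5 at P6, 3 at P14 and P23; grey WT, red DN-CLIM). At P23 complex I and II lie above P14 and complex V below it in both genotypes, and 1 DN-CLIM P6 array stands apart in complex III (11.92).

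From P6 to P14 fewer members changed, and most of those that did fell. In WT skin 10 of 67 were called, 1 higher and 9 lower (14.9% against 20.8% of all probe sets, 9.43% higher and 11.3% lower), and in DN-CLIM 14, 3 higher and 11 lower (20.9% against 26.8%, 12.1% higher and 14.7% lower). Without DN-CLIM P6 replicate 5 the DN-CLIM count was 16, 3 higher and 13 lower, beside 29% of all probe sets (12.6% higher and 16.3% lower). The WT count was 16 (26% of all probe sets) without DN-CLIM P6 replicate 5. It also rests on single WT arrays: it was 4 without WT P6 replicate 2, WT P14 replicate 1 or WT P14 replicate 3. The DN-CLIM count was 9 without DN-CLIM P14 replicate 2 or 3. Centring the arrays gave 5 calls in WT, 1 higher and 4 lower. The shares of all probe sets with a WT or P14 array left out, or with centring, are not given here.

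The calls held in both genotypes for Cox6b2 and Atp5pb under each array left out from the groups compared, but with P6 arrays 4 and 5 alone the DN-CLIM calls were lost (Cox6b2 -0.45, adjusted p = 0.159; Atp5pb 0.46, adjusted p = 0.0576). Cox6b2 (97352_f_at) read 8.78, 8.85, 9.06, 8.77 and 8.82 at P6 and 8.07, 7.70 and 7.80 at P14 in WT. In DN-CLIM it read 8.72, 8.91, 8.90, 8.42 and 8.56 and then 8.20, 8.08 and 7.84. The ages did not overlap, and it fell in both, with -1.0 ± 0.17 (SE, adjusted p = 0.000172) in WT and -0.66 ± 0.17 (SE, adjusted p = 0.00611) in DN-CLIM (-0.70 without replicate 5). Atp5pb read 8.11, 7.60, 8.02, 8.20 and 7.90 at P6 in WT and 8.39, 7.81, 7.99, 8.57 and 8.27 in DN-CLIM. Every P14 array, given above, lay higher, with a log2 change of 0.89 ± 0.16 (SE, adjusted p = 0.00042) in WT and 0.67 ± 0.16 (SE, adjusted p = 0.00434) in DN-CLIM (0.69 without replicate 5). Atp5pb was thus higher at P14 than at P6 and than at P23, 2 comparisons that share the P14 arrays.

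Ndufab1 read 10.58, 10.83, 10.45, 10.40 and 10.36 at P6 in WT and 10.34, 10.59, 10.60, 10.57 and 11.69 in DN-CLIM, where the highest value is replicate 5. The P14 arrays were all lower, with a change of -0.70 ± 0.21 (SE, adjusted p = 0.0221) in WT and -1.16 ± 0.21 (SE, adjusted p = 0.000378) in DN-CLIM, or -0.93 without replicate 5. Ndufa7 (95652_at), an accessory subunit of complex I, read 12.39, 12.80, 12.27, 12.10 and 12.29 at P6 and 11.45, 12.07 and 11.41 at P14 in WT, and 12.76, 12.72, 12.81, 12.34 and 12.53 and then 11.35, 12.10 and 12.04 in DN-CLIM. It fell without overlap, with -0.73 ± 0.18 (SE, adjusted p = 0.00647) and -0.80 ± 0.18 (SE, adjusted p = 0.00244) (-0.83 without replicate 5), and it was not called from P14 to P23 in either genotype (0.11 and -0.33). The WT call of Ndufa7 was lost without WT P14 replicate 3 (-0.61, adjusted p = 0.0546), and that of Ndufab1 without WT P6 replicate 2 or WT P14 replicate 1 or 3 (-0.62 to -0.61, adjusted p from 0.0561 to 0.107). With P6 arrays 4 and 5 alone the calls of Ndufa7 in WT (-0.55, adjusted p = 0.123) and DN-CLIM (-0.61, adjusted p = 0.0615) and of Ndufab1 in WT (-0.55, adjusted p = 0.165) were lost.

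Sdhd read 10.95, 11.26, 11.21, 11.12 and 11.08 at P6 in WT and 11.47, 11.38, 11.19, 10.96 and 10.21 in DN-CLIM. The WT P6 arrays lay above all P14 arrays, while the lowest DN-CLIM P6 array, replicate 5, lay below them. The change to P14 was -0.54 ± 0.18 (SE, adjusted p = 0.0358) in WT and -0.49 ± 0.18 (SE, adjusted p = 0.0439) in DN-CLIM, and without replicate 5 it was -0.70 in DN-CLIM (adjusted p = 4.16e-05). Other arrays ended these calls: WT P6 replicates 2, 3 and 4 and each WT P14 array (adjusted p from 0.0526 to 0.101), and DN-CLIM P6 replicates 1, 2 and 3 and each DN-CLIM P14 array (0.0789 to 0.13). The WT call was also lost with centring (0.0502) and with no filter (0.0587). The DN-CLIM call was lost with quantile normalization (0.0659), no filter (0.0654), no trend (0.0559), the compared arrays alone (0.194) and P6 arrays 4 and 5 alone (-0.04, adjusted p = 0.883).

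Smaller falls from P6 to P14 were called for Ndufa2, Ndufa6, Ndufb11 and Uqcr11. In WT the changes were -0.36, -0.43, -0.30 and -0.32, and in DN-CLIM -0.43, -0.61, -0.47 and -0.50. Without DN-CLIM P6 replicate 5 the DN-CLIM values were -0.35, -0.52, -0.43 and -0.46, all still called. The WT calls of these 4 genes were each lost without single arrays: Ndufa2 without any WT P6 or P14 array except P6 replicate 3, Ndufa6 without P6 replicate 1 or 2 or any P14 array, Ndufb11 without P6 replicate 2 or P14 replicate 1 or 2, and Uqcr11 without P6 replicate 1, 2 or 5 or P14 replicate 1 or 3 (adjusted p from 0.0539 to 0.185). The DN-CLIM call of Ndufa2 was lost without P14 replicate 2 or 3 (0.0839 and 0.0965), with the compared arrays alone (0.105) and with P6 arrays 1 to 3 alone (0.0629). Centring ended all 4 WT calls (adjusted p from 0.0847 to 0.109), as did P6 arrays 4 and 5 alone (0.0532 to 0.332), and no filter ended those of Ndufa2, Ndufa6 and Uqcr11 (0.0502 to 0.0656). Other settings also ended the WT calls of Ndufa2 (quantile normalization, no trend, replicate block, P6 arrays 1 to 3 alone), Ndufa6 (quantile normalization) and Uqcr11 (the compared arrays alone), with adjusted p from 0.053 to 0.0922. From P14 to P23, a comparison that shares the P14 arrays, the same genes rose by the amounts given above, and from P6 to P23 none of Ndufa2 (0.12 and 0.07), Ndufa6 (0.03 and 0.08), Uqcr11 (0.01 and 0.01) and Sdhd (-0.03 and 0.09) was called. Without replicate 5 those DN-CLIM values were 0.15, 0.18, 0.06 and -0.12. Ndufb11 was called higher at P23 than at P6 (0.45 and 0.26, and 0.30 in DN-CLIM without replicate 5). Its DN-CLIM call was lost without P6 replicate 4 or any DN-CLIM P23 array (adjusted p from 0.05 to 0.076) and with centring (0.10, adjusted p = 0.457), the compared arrays alone (0.0658) or the replicate block (0.0651).

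Atp5e was called lower at P14 than at P6 in WT alone. It read 11.69, 11.99, 11.55, 11.83 and 11.70 at P6 in WT, all above the P14 arrays, and 11.50, 11.45, 11.80, 11.42 and 11.31 in DN-CLIM, which overlapped its P14 arrays. The change was -0.43 ± 0.11 (SE, adjusted p = 0.00813) in WT and -0.00 ± 0.11 (SE, adjusted p = 0.988) in DN-CLIM (-0.05 without replicate 5). The difference between these changes was 0.43 ± 0.16 (SE) with adjusted p = 0.683 in limma (0.38, adjusted p = 0.598, without replicate 5), so the difference did not pass the test. In DN-CLIM alone, Ndufb8 (-0.40), Ndufb7 (-0.26) and Uqcrh (-0.33) were called lower and Ndufa10 (0.59) and Cox6b1 (0.71) higher. Without replicate 5 these 5 values were -0.37, -0.29, -0.32, 0.66 and 0.77, all still called. Single other DN-CLIM arrays ended the calls of Ndufb7 (P6 replicate 1 or P14 replicate 2 or 3, adjusted p from 0.0727 to 0.159), Uqcrh (P14 replicate 2, 0.0762), Ndufa10 (P14 replicate 3, 0.106) and Cox6b1 (P6 replicate 1 or 3 or P14 replicate 2 or 3, 0.0579 to 0.185). P6 arrays 4 and 5 alone ended those of Ndufb7 (0.157), Ndufa10 (0.127) and Cox6b1 (0.138), the compared arrays alone those of Ndufb7 (0.12), Uqcrh (0.0502) and Cox6b1 (0.062), and no filter that of Cox6b1 (0.0537). The difference between the genotypes was not called for any of them.

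Over the whole interval from P6 to P23, 30 member probe sets were called in WT, 14 higher and 16 lower (44.8% against 54% of all probe sets, 25.7% higher and 28.3% lower), and 33 in DN-CLIM, 14 and 19 (49.3% against 54.8%, 26.7% higher and 28.2% lower). Without DN-CLIM P6 replicate 5 the DN-CLIM count was 36, 16 higher and 20 lower, beside 57.6% of all probe sets (27.8% higher and 29.8% lower). The WT count was then 36 (57.8% of all probe sets). Quantile normalization turned the split to 18 and 12 in WT and 18 and 14 in DN-CLIM, and centring to 10 and 20 and to 7 and 30. The shares of all probe sets under these scalings are not given here. Sdha read 7.26, 7.62, 7.87, 7.92 and 7.38 at P6 in WT and 7.62, 7.68, 7.50, 7.58 and 6.95 in DN-CLIM, levels that overlapped P14 and lay far below P23. It was higher at P23 than at P6 by 1.74 ± 0.19 (SE, adjusted p = 1.03e-07) in WT and 1.91 ± 0.19 (SE, adjusted p = 2.3e-08) in DN-CLIM (1.78 without replicate 5). Ndufs1 was higher by 0.70 ± 0.09 (SE, adjusted p = 6.43e-07) in WT and 0.71 ± 0.09 (SE, adjusted p = 4.61e-07) in DN-CLIM (0.70 without replicate 5). Cox6b2 changed by -1.45 in WT and -1.32 in DN-CLIM, Atp5e by -1.15 and -1.15, and Cox7a2 by -0.77 and -0.83 (adjusted p at most 8.23e-07). Without replicate 5 the DN-CLIM values of these 3 were -1.36, -1.20 and -0.81.

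The genotypes were compared at each age to ask whether the transgene changed these genes. In limma 0 of 67 member probe sets were called at P6, P14, P23 or over the 3 ages, against 0.0322%, 0.0644%, 0.161% and 0.177% of all probe sets. At an unadjusted p under 0.05 there were 2, 1, 1 and 1 members, and the smallest adjusted p was 0.549, 0.744, 0.999 and 0.675. The differences were small: for P6, P14 and P23 in turn the median absolute log2 difference was 0.08, 0.10 and 0.07, and the largest was 0.35, 0.49 and 0.30. The 95% interval of the difference lay within ±0.5 for 58 of 67 probe sets at P6, 51 at P14 and 52 at P23, and for all 67 over the 3 ages. For the remaining members the interval reaches past 0.5 (log2) at that age. Without DN-CLIM P6 replicate 5 there were again 0 calls at P6 (0.0805% of all probe sets) and over the 3 ages (0.258%), with 1 and 3 members at an unadjusted p under 0.05, and at P6 the median absolute difference was 0.07, the largest 0.29, and 60 intervals lay within ±0.5.

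**Figure D4:**
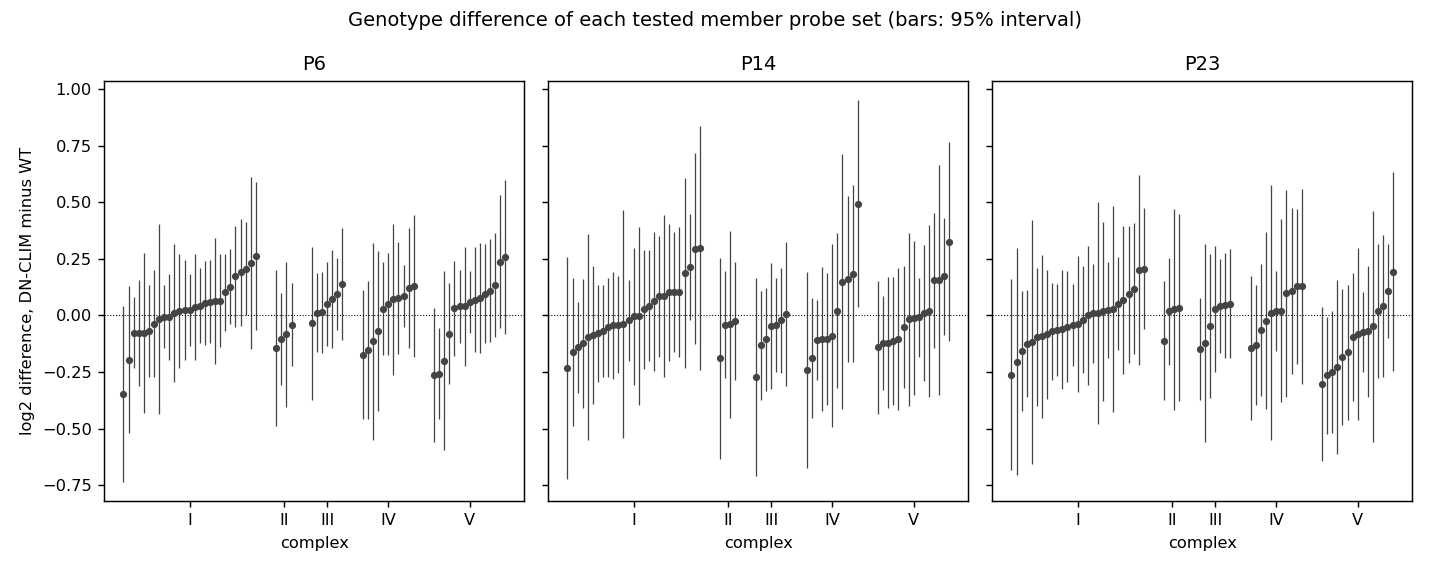
Each point is the log2 difference, DN-CLIM minus WT, of 1 tested member probe set at P6, P14 or P23, with its 95% interval from limma, ordered by size within complexes I to V. The points lie on both sides of 0 at each age, and the largest is 0.49, at P14.

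Atp5e had the smallest p of the tested members in the genotype comparisons at P6 and at P23. At P23 the DN-CLIM arrays lay below all WT arrays, with a difference of -0.26 (95% interval -0.52 to -0.01, adjusted p = 0.999). At P6 the difference was -0.26 (-0.46 to -0.06, adjusted p = 0.549; -0.21 without DN-CLIM P6 replicate 5) with overlapping arrays, and at P14 it was 0.17 (-0.09 to 0.43, adjusted p = 0.888). These values did not pass the test. The age changes were compared between genotypes too: for P14 minus P6 the DN-CLIM change differed from the WT change for 0 of 67 members, against 0.0161% of all probe sets, and for P23 minus P14 for 0 of 67, against 0% of all. One member reached an unadjusted p under 0.05 in each, Atp5e, and the smallest adjusted p was 0.683 and 0.897. Without DN-CLIM P6 replicate 5 the former comparison again gave 0 calls, with 2 members at an unadjusted p under 0.05 and a smallest adjusted p of 0.598. For P23 minus P14 the 95% interval of that difference lay within ±0.5 for 26 of 67 members, and for the others it reached past that size.

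The age changes of WT and DN-CLIM, which rest on separate arrays, were called in largely shared members. From P14 to P23, 26 members were called in the same direction in both (17 higher and 9 lower), 81.2% of the WT calls and 76.5% of the DN-CLIM calls, and 0 in opposite directions. For all probe sets the shares were 83.7% and 83.5%. From P6 to P14 the 9 shared calls made up 90.0% of the WT list and 64.3% of the DN-CLIM list, with 67.9% and 52.6% for all probe sets. Leaving out DN-CLIM P6 replicate 5 gave 11 shared calls, 68.8% of each list, with 66.1% and 59.3% for all probe sets. Among the genes named for the change from P14 to P23, 16 kept their call in both genotypes in every refit that left out 1 array of the groups compared: Ndufs1, Ndufs3, Ndufv3, Ndufab1, Ndufa2, Ndufa5, Ndufb11, Sdha, Uqcrb, Uqcrc1, Cox7a2, Cox6a1, Cox7b, Atp5e, Atp5pb and Atp5l. Of these, Ndufs3 in DN-CLIM lost its call with centring (0.32, adjusted p = 0.0558) and Atp5l with quantile normalization, as given above. The named genes were picked partly for a small p or a large change. The share of all probe sets that kept both calls in such refits was not counted, so this count may be ordinary.

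Other settings ended further calls. Centring ended, for the change from P14 to P23, the WT calls of Ndufa6 (0.33, adjusted p = 0.121), Sdhc (0.22, adjusted p = 0.181), Uqcr11 (0.20, adjusted p = 0.222) and Cox4i1 (0.46, adjusted p = 0.0704). It also ended the DN-CLIM calls of Ndufc1 (0.56, adjusted p = 0.0993) and Uqcrc2 (0.47, adjusted p = 0.0643). Quantile normalization ended the WT call of Cox4i1 (0.49, adjusted p = 0.0544). With no filter on signal the adjusted p was 0.0506 for Sdhd, 0.0723 for Cox6b2 and 0.0694 for Uqcrq in WT, and 0.066 for Ndufc1 and 0.0517 for Uqcrc2 in DN-CLIM. Without the trend it was 0.0622 for Uqcrq in WT and 0.0566 for Ndufc1 in DN-CLIM. The WT call of Cox6b2 was also lost with pseudocounts of 16 and 64 (adjusted p = 0.0509 and 0.061) and with the compared arrays alone (0.111).

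Other mitochondrial genes were counted from lists, 1 probe set per gene, for the change from P14 to P23. Beside these counts stand those of all probe sets tested, 27% higher and 27.1% lower in WT and 27.1% and 27.2% in DN-CLIM, and no list was tested against them. Of the TCA cycle genes 8 of 17 were called higher and 0 lower in WT, with a median of 0.33, and 10 and 2 in DN-CLIM, with 0.48. Dld, the shared dehydrogenase subunit of the pyruvate and oxoglutarate complexes, rose by 1.25 and 1.37, and Pdhb, of pyruvate dehydrogenase, by 0.86 in both. Of cytochrome c and linked carriers 7 of 12 were higher and 2 lower in WT (median 0.80) and 8 and 3 in DN-CLIM (0.63). Cycs, cytochrome c itself, rose by 1.26 and 1.46, and Slc25a4, a nucleotide carrier abundant in muscle, by 0.92 and 0.96. Of fatty acid oxidation genes 8 of 12 were higher and 2 lower in WT and 7 and 2 in DN-CLIM; Acadl rose by 1.38 and 1.21 and Cpt1a, which brings fatty acids into mitochondria, fell by 0.96 and 1.28. Of mitochondrial ribosomal proteins 3 of 52 were higher and 14 lower in WT (median -0.14) and 6 and 14 in DN-CLIM (-0.07), and Mrpl20 fell by 1.17 and 1.0. Protein import genes went both ways (7 higher and 4 lower of 20 in WT, 6 and 5 in DN-CLIM). The assembly factors were mostly not called: for complex I 0 higher and 1 lower of 3 in WT and 0 and 0 in DN-CLIM, and for complexes II to V 2 and 1 of 9 in WT and 0 and 0 in DN-CLIM. Sdhaf2, which attaches the flavin to Sdha, rose by 0.72 in WT (adjusted p = 0.00235) and gave 0.39 in DN-CLIM (adjusted p = 0.0788). Of regulators of mitochondrial gene expression 2 of 6 were higher and 2 lower in both genotypes: Gabpa and Yy1, whose products bind the ETS and YY1 motifs, rose by 1.09 and 1.10 in WT, and Gabpb1 and Esrra fell by 0.67 and 0.36.

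Markers of cell types that are rich or poor in mitochondria moved over the same ages, and their part in the results was not tested. The same shares of all probe sets stand beside the counts from P14 to P23. Of 30 skeletal muscle genes 28 were on the array, and their summed signal ran from 42903 to 50094 at P6, 53390 to 60975 at P14 and 148054 to 185095 at P23 in WT. In DN-CLIM it ran from 47292 to 57554, 44158 to 62290 and 146616 to 157967. From P14 to P23, 19 of 22 tested muscle genes were called higher and 3 lower in WT, and 18 and 3 in DN-CLIM. Of 14 adipocyte genes 11 were on the array, with sums of 25400 to 30877 at P6, 14662 to 15963 at P14 and 34533 to 42687 at P23 in WT, and 24304 to 31319, 16951 to 17213 and 31251 to 39189 in DN-CLIM. The adipocyte genes went down to P14 (6 of 10 called lower in each genotype, against 11.3% and 14.7% of all probe sets, and 6 in DN-CLIM also without DN-CLIM P6 replicate 5) and up to P23 (7 of 10 called higher in each). Of 18 hair matrix and shaft genes 14 were on the array, with sums of 137629 to 216379, 285066 to 322821 and 3521 to 4159 at P6, P14 and P23 in WT, and 133762 to 184038, 268680 to 331666 and 3694 to 3865 in DN-CLIM. All 14 were called lower at P23 than at P14 in both genotypes. Of 23 cell cycle genes 21 were on the array, with sums of 17326 to 18132 at P14 and 8468 to 10209 at P23 in WT and 17474 to 19371 and 8246 to 9124 in DN-CLIM, and 14 of 20 were called lower in WT and 17 in DN-CLIM. Dermal matrix genes were called higher at P23 than at P14 for 15 of 16 in WT and 13 in DN-CLIM, macrophage genes for 12 and 11 of 12, and 0 of either list lower. Of 7 brown fat genes 5 were on the array and 1 was tested, Cidea, which rose by 0.69 and 0.89. No marker was listed at a signal of 0 on any array. Glycolysis genes, 9 of 15 higher and 1 lower in both genotypes, were led by Pgam2 (3.22 and 3.14), Eno3 (2.23 and 2.19) and Pfkm (2.27 and 2.41). All of these are muscle forms, and Pgam2 and Eno3 are also in the muscle list.

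Several member values are limited by their probes. Of the tested member probe sets, 45 have plain names and 22 carry a letter (such as _f, _s, _i or _r) by which the array's maker marks probe sets that can match related sequences or were made under relaxed rules. Those of Uqcrb, Cox6a1, Cox6b2, Atp5e, Ndufa5, Cox4i1 and Cox6b1 are among the latter, so related copies may share their signal and these values are uncertain in that respect. Sdha, Sdhd, Ndufv3, Ndufab1, Ndufs1, Uqcrc1, Cox7a2, Cox7b, Atp5pb and Atp5l have plain names. Sdha and the called probe set of Cox4i1 passed the filter on signal through their P23 arrays, as given above. Of the 5 genes with several tested probe sets (11 in all), Cox4i1 and Ndufb2 gave opposite signs in both genotypes: for Ndufb2 the changes from P14 to P23 were -0.27 and -0.53 on 1 probe set, the second called lower, and 0.13 and 0.17 on the other. The other 29 member probe sets were too dim to be tested, with mean log2 signals from 2.05 to 7.62. They were the only probe sets of Ndufa1, Ndufa12, Ndufc2, Ndufs4, Cox5a, Cox8a, Atp5k, Atp5j2 and Ndufaf4. With no filter on signal, 3 of the 29 were called from P14 to P23 in WT and 8 in DN-CLIM, and 0 between genotypes at any age. The share of all probe sets called with no filter is not given here, so these counts cannot be read as many or few. Some of the dim probe sets differ from the brighter probe set of the same gene. A dim probe set of Ndufb2 (162473_r_at) read 8.52, 8.19 and 8.89 at P14 and 2.76, 2.62 and 1.89 at P23 in WT, and 8.12, 8.37 and 8.78 and then 2.27, 2.67 and 2.19 in DN-CLIM. Its change was -6.11 in WT and -6.05 in DN-CLIM (adjusted p = 7.42e-09 and 9.64e-09 in limma with no filter), far from the values of its tested probe sets, so the level of this gene is unsettled. A dim probe set of Cox6b2 (97351_i_at) gave 1.55 in WT and -1.36 in DN-CLIM (adjusted p = 0.00486 and 0.0124), where the brighter one fell in both. One of Cox5a (161490_at) gave 2.24 in WT and -2.08 in DN-CLIM (adjusted p = 0.00373 and 0.00658), and one of Ndufb6 (161660_r_at) 2.47 in DN-CLIM (adjusted p = 0.0486). The mean log2 signal of these last 3, in the order named, was 6.06, 3.38 and 3.24, below the limit for testing. They were chosen after their values were seen.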

How the data were processed

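Back skin RNA (TRIzol, then RNeasy columns, labelled with biotin by in vitro transcription) was measured on 22 single-colour arrays. The intensity values used are those the authors deposited in 1 table, made with MAS5 per the submitters' processing notes; its version and settings are not given in the sources used here. Leaving out the highest and lowest 2% of probe sets, the array means were 500.2 to 500.3, so the deposited values were already scaled and no further normalization was applied. Of 12488 probe sets, 66 controls were left out. The platform annotation gave 1 gene for 10855, several for 396 and none for 1237. All 96 member probe sets matched RefSeq by gene ID.

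Signals were put on the log2 scale. Probe sets with a mean of at least 7.67 (signal 203), the median, were tested: 6211 passed. A model with a mean for each of the 6 groups was fitted to all arrays in limma 3.58.1 (R 4.3.3; lmFit and eBayes with trend), with Benjamini-Hochberg adjustment over all tested probe sets and a threshold of 0.05. A gene with several probe sets is represented by the one with the highest mean. Named members are up to 3 genes per complex with the smallest p in a comparison, for the age comparisons also the 5 largest rises and the 5 largest falls without overlap, and a fixed set of catalytic subunits and isoform families; other lists give up to 3 genes. Members named outside this rule were chosen after their values were seen. Members of the fixed set not analysed here include Uqcrfs1, Atp5b, Atp5g3, Cox4i2, Ndufa4 and Ndufa4l2. The members and lists were chosen with earlier results of these data known. Alternatives were other scalings, filters, pseudocounts of 16 and 64, array weights, the arrays of 2 groups alone, the replicate number as a block, parts of the P6 arrays and each array left out. The model was also run on simulated data drawn independently for each array, with changes in a small part of the probe sets of a single group. Those data hold no array that stands apart and far fewer changes, so that run does not vouch for the calls made here. Promoters and figures used Python 3.11.15, pandas 2.3.3 and matplotlib 3.10.9.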

Additional observations from a re-analysis of the deposited data

Results flagged for a closer look

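Of 86 groups of 5 arrays examined for a value far from the others (the gap to the nearest array against the group's range), 13 stood out; chance gives about 1 in 20. On DN-CLIM P6 replicate 5 the mean log2 signal of complex III was 11.92, with 11.47 to 11.53 on the other 4 arrays, and the mean over all tested member genes was 10.99, with 10.74 to 10.80 on the others. On the same array 6 genes stood high and 2 low. Cox6a1 read 13.745 (others 12.95 to 13.17), Cox7a2 12.71 (12.56 to 12.60) and Ndufa5 11.15 (10.61 to 10.71). Ndufab1 read 11.69 (10.34 to 10.60), Uqcrb 11.26 (10.70 to 10.77) and Uqcrq 13.53 (12.64 to 12.76). Ndufa9 and Sdha were the low ones, at 10.31 (11.38 to 11.78) and 6.95 (7.50 to 7.68). On WT P6 replicate 3, Cox6b2 was high at 9.06 (8.77 to 8.85) and Ndufa2 low at 10.22 (10.47 to 10.54). On WT P6 replicate 2, Uqcrq was high at 12.85 (12.69 to 12.73).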

How the results depend on the processing

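The counts of members called from P14 to P23 and from P6 to P23 stayed within 1.5 times of those reported under every alternative run, and every genotype comparison and every comparison of age changes gave 0 calls under each. Of 104 gene results, 61 kept their direction and their side of the threshold in every run; of 1888 runs, 192 did not. Where a value below moved, the cause was not tested.

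Quantile normalization moved the median log2 change of the members in DN-CLIM to 0.0924 (P14 to P23) and 0.0355 (P6 to P23). Centring the arrays gave 5 calls in WT from P6 to P14 and medians of -0.0681 (P14 to P23) and -0.0839 (P6 to P23) in WT and -0.2262 (P6 to P14), -0.1026 (P14 to P23) and -0.1988 (P6 to P23) in DN-CLIM, and -0.1771 for the difference between genotypes in the change from P6 to P14. With no filter the DN-CLIM medians were -0.0642 (P6 to P14) and -0.1045 (P14 to P23). With the stricter filter they were 0.0291 (P14 to P23) and -0.1383 (P6 to P23), and -0.0454 in WT (P6 to P23). Array weights gave -0.077 and P6 arrays 1 to 3 alone -0.0674 in DN-CLIM from P6 to P14, and fitting the compared arrays alone gave 9 calls there. P6 arrays 4 and 5 alone gave 5 calls in WT from P6 to P14, a DN-CLIM median of -0.1265 from P6 to P23, and -0.1359 for the genotype difference in the change from P6 to P14.

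Leaving out 1 array at a time gave 4 to 11 calls in WT and 9 to 18 in DN-CLIM from P6 to P14. The groups share 1 estimate of the spread, and without DN-CLIM P6 replicate 5 the WT count there was 16. The DN-CLIM median then ran from -0.171 to -0.0604 (P6 to P14) and from -0.0378 to 0.0373 (P14 to P23), and that of the genotype difference in the change from P6 to P14 from -0.0915 to 5e-04.

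The medians of single complexes moved by more than the spread between arrays in 45 of 580 runs that left out an array and in 112 of 700 with another setting. From P14 to P23 they ran, over all of these, from 0.075 to 0.3478 in WT and 0.0016 to 0.3026 in DN-CLIM (complex I), 0.3022 to 0.503 and 0.2647 to 0.4773 (II), -0.1835 to 0.0379 and -0.0386 to 0.117 (III), -0.2594 to -0.0783 and -0.5054 to -0.0741 (IV), and -0.3535 to -0.0022 and -0.2937 to -0.172 (V), so that of complex III alone changed sign.

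Among the gene results, direction turned for 8 that lay close to 0 and had not been called. From P6 to P23 centring gave -0.0664 (Ndufa6) and -0.0862 (Uqcr11) in WT and -0.082 (Ndufa2), -0.0682 (Ndufa6), -0.1382 (Uqcr11) and -0.0596 (Sdhd) in DN-CLIM. Ndufa6 in WT gave -0.0128 with quantile normalization, -0.0095 with the replicate block and -0.0183 with P6 arrays 1 to 3. Sdhd gave 0.0042 in WT with array weights, and in DN-CLIM -0.0963 with array weights, -0.0663 with the replicate block, -0.2112 with P6 arrays 1 to 3 and 0.5488 (called higher) with P6 arrays 4 and 5. With P6 arrays 4 and 5 Ndufa2 gave -0.1014 and Uqcr11 -0.0106 in DN-CLIM. Atp5e from P6 to P14 in DN-CLIM gave 0.0046 with quantile normalization and 0.1274 with P6 arrays 4 and 5. Leaving out 1 array gave -0.1081 to 0.0732 for the latter, and from P6 to P23 -0.0342 to 0.1765 (Ndufa6), -0.1155 to 0.2003 (Sdhd) and -0.0456 to 0.0798 (Uqcr11) in DN-CLIM and -0.0281 to 0.089, -0.0881 to 0.0409 and -0.0481 to 0.0686 in WT.

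Same-numbered arrays of the 2 genotypes correlated at -0.047 to 0.249 in their deviations, and at 0.056 to 0.249 at P23. Differently numbered arrays were not correlated for comparison, so these values cannot settle whether the replicate numbers pair the arrays. With the replicate number as a block the calls were 12, 33 and 34 in WT and 18, 39 and 35 in DN-CLIM (P6 to P14, P14 to P23, P6 to P23), each above the count without the block, and 0 in every genotype comparison. The number of arrays, and for the dim members the signal, limit the precision.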
